A study of Mus musculus with 9 samples.

Results

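The 6 libraries of blastocysts whose oocytes received ionomycin after sperm injection were set against the 3 libraries of blastocysts made by sperm injection alone. The ionomycin groups were ICSI-AOA, in which normal sperm was injected and the oocyte was then activated with ionomycin (replicates 1, 4 and 5), and dICSI-AOA, in which oocyte activation-deficient sperm was injected and ionomycin followed (replicates 1, 4 and 5). The control group was ICSI, normal sperm without ionomycin (replicates 2, 5 and 6). All 9 libraries of the series entered, each made from total RNA of pooled C57BL/6 blastocysts collected on day 3.5, so that a value is a mean over several embryos. The genes described are those called between the pooled ionomycin groups and ICSI, and above all those in which all 6 ionomycin libraries lay on 1 side of all 3 ICSI libraries. They were 143 of the 4304 genes tested. No library of deficient sperm without ionomycin was analysed here, so in dICSI-AOA the sperm and the ionomycin cannot be told apart, and only ICSI-AOA differs from ICSI in ionomycin alone.

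Intracytoplasmic sperm injection (ICSI) places a single sperm in the oocyte. The sperm normally carries a phospholipase C that produces inositol trisphosphate and releases calcium from the endoplasmic reticulum in repeated waves, which end the meiotic arrest and start development. Artificial oocyte activation (AOA) replaces or adds to that signal with an ionophore. Ionomycin carries calcium across membranes, empties internal stores and raises calcium in the cytoplasm. The study recorded repeated calcium spikes in most oocytes of both ionomycin groups, at frequencies it found comparable to those after ICSI. The blastocyst that follows some days later consists of an outer epithelium, the trophectoderm, and an inner cell mass that holds the epiblast and the primitive endoderm.

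The libraries were shallow. A fragment is 1 read pair assigned to a gene, recovered from the deposited estimated counts, and the 9 libraries held 128176 to 172307 fragments, with 1788 to 2033 genes per library at 10 fragments or more. Mitochondrial genes held 6.18% to 9.61% of fragments. Of blastocyst markers, the transcription factors Pou5f1, Nanog, Sox2 and Gata3 were at 0 in all 9 libraries, while over all 9 together Krt8 had 47 fragments, Gata6 32, Krt7 31, Krt19 30, Cdx2 18 and Krt18 8, where Actb had 68 and mt-Nd5 80014. A fragment was seen in 12 of 25 entries of the trophectoderm list, 12 of 19 of the primitive endoderm list and 7 of 20 of the epiblast list. The name blastocyst is used here as the label gives it. Genes sharing 100 bp or more of exon with an antisense neighbour held 60.5% of all fragments. Over all 9 libraries Gapdh had 18 fragments, and the mitochondrial genes mt-Atp6, mt-Atp8 and mt-Cytb were at 0. Which strand was counted was not settled here, so fragments given for such a gene may stem from its partner. For a gene without a partner, the strand of its fragments is open as well. The partner is therefore named beside each such gene. With the strand open, the values of a gene and its partner cannot tell which of them changed.

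A gene was called when it differed by more than 1.3-fold with an unadjusted p under 0.05, and 298 genes were called so between the ionomycin groups and ICSI, 6.92% of those tested. Higher in the ionomycin groups were 114 genes (2.65% of those tested) and lower were 184 (4.28%). Among those called higher were Syn1 of synaptic vesicles and the lysosomal enzymes Sgsh and Gla, and among those called lower were 14 markers of small-intestinal epithelium, the keratin Krt8 and Gsg2, the mitotic kinase haspin. None passed an adjusted p of 0.05 in edgeR's quasi-likelihood test, where the smallest was 0.103, and 306 (7.11%) had an unadjusted p under 0.05. DESeq2 also gave 0 genes at that level, with 156 at an unadjusted p under 0.05. The calls therefore rank genes and do not single out any of them after correction over 4304 tests. Whether replicates came from separate collections of mice is stated by the study only as independent replicates, and the p-values measure the spread between these libraries.

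**Figure D1:**
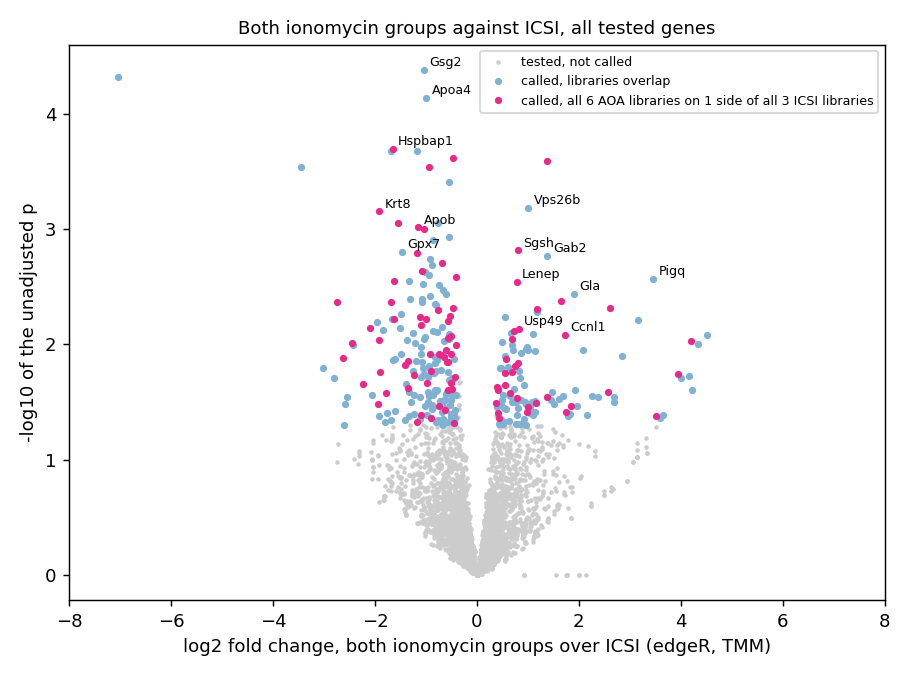
Each point is 1 of the 4304 genes, with its log2 fold change of both ionomycin groups over ICSI across and minus log10 of its unadjusted p upwards. Pink points are called genes in which all 6 ionomycin libraries lay on 1 side of all 3 ICSI libraries (34 higher, 57 lower), blue points are other called genes, and the point farthest left is Ube2n, seen in a single ICSI library.

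All 6 ionomycin libraries lay on 1 side of all 3 ICSI libraries in 143 genes (3.32% of 4304) when fragments were scaled by TMM to CPM, a share of each library's fragments. In 57 genes (1.32%) they lay above and in 86 (2% of all) below. Of these, 34 above (0.79% of all) and 57 below (1.32%) were also called, together 91 (2.11%). This is a description, since the condition uses the values that the test reads. Were all 9 libraries alike and without ties, a gene would lie above in 1 of the 84 splits into 6 and 3. That is a share of 0.0119, and the share below would be the same. The deposited FPKM gave another picture: 236 genes were on 1 side (5.48%), 223 of them above (5.18%) and 13 below (0.302%), and 62 genes (1.44%) were on the same side in CPM and in FPKM, 50 above (1.16%) and 12 below (0.279%), of which 30 (0.697%) and 10 (0.232%) were called. FPKM carries a factor that the authors applied to each library. With those factors on the same fragments 461 genes were called higher and 43 lower, so 91.5% were higher, against 38.3% with TMM, and the gene-wide median of the log2 fold change was 0.31, against −0.02 with TMM. Limma on log2(FPKM + 1) gave 383 higher and 45 lower. A change is therefore given here relative to the bulk of the genes. Of the called genes selected for description, 0 of 25 higher and 24 of 48 lower lost their calls with the authors' factors. By limma on log2(FPKM + 1), 1 of 25 higher and 38 of 48 lower lost them. Both scales raise the gene-wide median (0.31 and 0.24, against −0.02), and such a shift by itself adds higher calls and ends lower ones. The calls in both directions therefore depend on the scaling.

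Genes that were called higher, lay on 1 side in both scales and had a mean of at least 5 fragments were led by 12 named here. Ccnl1, a cyclin that acts with kinases in RNA splicing, had 12, 6 and 5 fragments in the ICSI-AOA libraries and 7, 9 and 6 in dICSI-AOA, against 3, 2 and 1 in ICSI, a log2 fold change of 1.72 with an SE of 0.60 (adjusted p = 0.455 in edgeR). It has the largest fold of the 12 and the fewest fragments, and its exons overlap Gm37305 on the other strand. Syn1, synapsin I, a protein that tethers synaptic vesicles, had 22, 25 and 23 fragments in the ICSI-AOA libraries and 22, 21 and 18 in dICSI-AOA, against 7, 9 and 7 in ICSI. The gene lies on chromosome X at 20860511 to 20921004 of mm10, minus strand. Its log2 fold change was 1.37 (SE 0.32, adjusted p = 0.124 in edgeR), and the levels were 145 ± 17.8 CPM in the ionomycin libraries (SD, n = 6) and 55.4 ± 3.58 CPM in the ICSI libraries (SD, n = 3). Ranbp6, a protein of the importin family, had 18, 17 and 14 fragments in the ICSI-AOA libraries and 10, 22 and 18 in dICSI-AOA, against 5, 8 and 7 in ICSI (log2 fold change 1.17, SE 0.38), and overlaps AC120159.1.

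Sgsh encodes the lysosomal sulfatase that removes sulfate from heparan sulfate. It had 39, 52 and 44 fragments in the ICSI-AOA libraries and 49, 42 and 51 in dICSI-AOA, against 18, 34 and 21 in ICSI (log2 fold change 0.81, SE 0.23, adjusted p = 0.313 in edgeR). Every ionomycin library was above every ICSI library, and the ionomycin groups had nearly the same fold (0.79 in ICSI-AOA and 0.82 in dICSI-AOA). The partner on the other strand, Card14, was at 0.21 (SE 0.28) without a call, which cannot tell to which gene the rise belongs. Usp49, a histone H2B deubiquitinase, had 20, 26 and 24 fragments in the ICSI-AOA libraries and 25, 26 and 26 in dICSI-AOA, against 10, 14 and 14 in ICSI (0.82, SE 0.28). Lenep, a small gene first described in lens epithelium, had 32, 38 and 42 fragments in the ICSI-AOA libraries and 42, 52 and 43 in dICSI-AOA, against 17, 22 and 27 in ICSI (0.78, SE 0.24). It has no exon overlap on the other strand, and its call held under every alternative that tested it. 6430550D23Rik, an uncharacterised gene that overlaps Cep250, had 37, 40 and 30 fragments in the ICSI-AOA libraries and 30, 22 and 32 in dICSI-AOA, against 18, 19 and 15 in ICSI (0.73, SE 0.25).

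The other 5 of the 12 lost their calls when single libraries were left out. Nkiras2, an inhibitor of the NF-kappaB pathway that overlaps Dnajc7, was at 0.80 (SE 0.31) and lost its call without ICSI replicate 2 (0.72). Spg11, which encodes spatacsin, a protein of lysosome renewal, and overlaps Eif3j1, was at 0.74 (SE 0.29) and lost it without ICSI replicate 5 (0.60). Pom121, a nuclear pore protein that overlaps Nsun5, was at 0.78 (SE 0.34), and its call was lost without dICSI-AOA replicate 1 (0.69), ICSI replicate 5 (0.63) or ICSI replicate 6 (0.79). Pusl1, a pseudouridine synthase family member that overlaps Ints11, was at 1.0 (SE 0.45) and lost its call without any of 5 single libraries, where the log2 fold changes were 0.75 to 1.03. Tm6sf1, a membrane protein that overlaps Hdgfl3, was at 0.98 (SE 0.45) and lost it without any of 4, where they were 0.85 to 0.94. Higher genes outside the rule, chosen after their values were seen, were Gab2, an adaptor of receptor tyrosine kinases, with 16, 20 and 20 fragments in the ICSI-AOA libraries and 10, 35 and 39 in dICSI-AOA, against 7, 11 and 6 in ICSI (1.38, SE 0.40), and Syce2, a protein of the synaptonemal complex, at 1.64 (SE 0.52). The groups of Gab2 overlap, since dICSI-AOA replicate 1 (64.42 CPM) lay below ICSI replicate 5 (71.72 CPM).

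**Figure D2:**
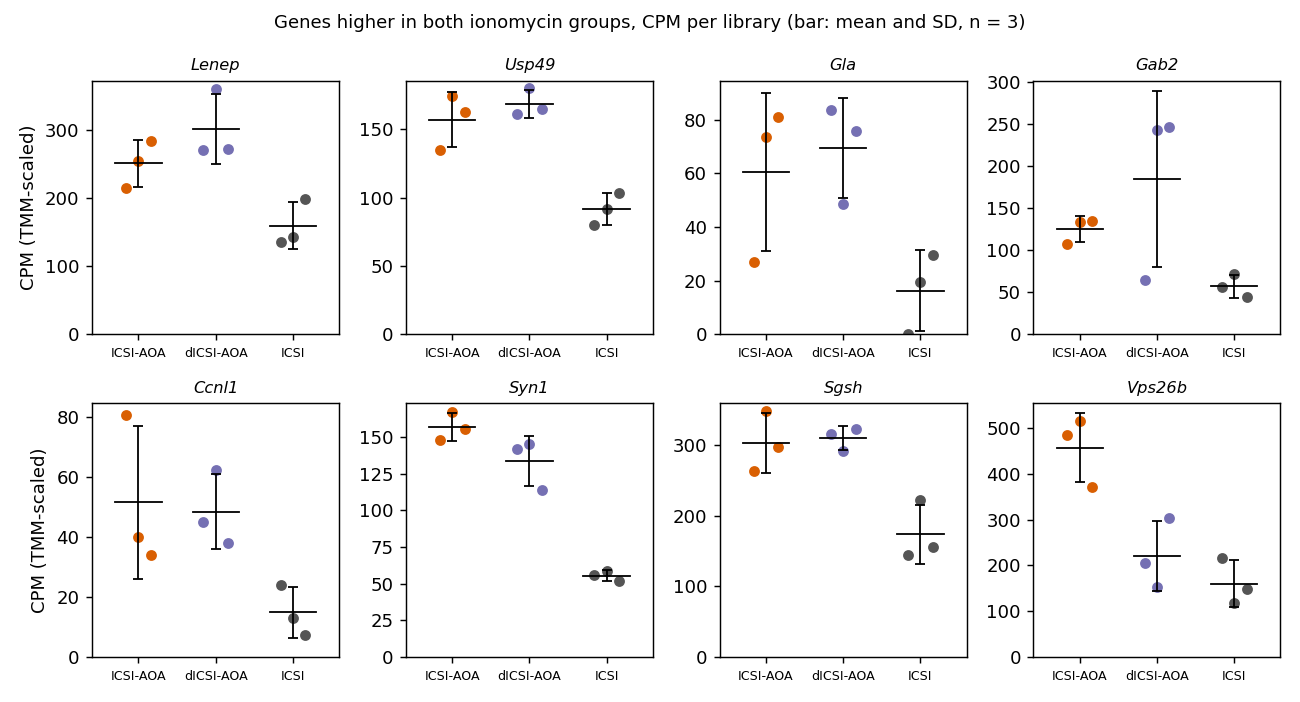
CPM of 8 genes called higher, per library, with the mean and SD (n = 3) of ICSI-AOA, dICSI-AOA and ICSI from left to right, each axis starting at 0. In Syn1, Usp49, Sgsh, Lenep and Ccnl1 all 6 ionomycin libraries lie above the 3 ICSI libraries, while Vps26b separates in ICSI-AOA only, with dICSI-AOA overlapping ICSI. In Gla ICSI-AOA replicate 1, and in Gab2 dICSI-AOA replicate 1, lies below the highest ICSI library.

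Among the genes called lower, only 5 met the same rule, Krt8, Mttp, Dusp4, Bri3 and 2200002D01Rik. Krt8, a keratin of simple epithelia and of the trophectoderm, had 4, 2 and 1 fragments in the ICSI-AOA libraries and 2, 4 and 4 in dICSI-AOA, against 8, 9 and 13 in ICSI. Its log2 fold change was −1.92 (SE 0.50, adjusted p = 0.232 in edgeR), and no ionomycin library reached the lowest ICSI library, although the numbers of fragments are small. Krt18, the partner keratin of the same filaments, had 8 fragments over all libraries, 4 in the ionomycin groups and 4 in ICSI, and was not tested. On mm10 Krt8 lies at chromosome 15, 101996698 to 102004482, minus strand, and its exons overlap Gm36026 by 101 bp. Of the 7 tested trophectoderm markers Krt8 was the only member called (14.3%, against 4.28% of all genes), with a list median of −0.31.

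Mttp encodes the microsomal triglyceride transfer protein, which loads lipid onto apolipoprotein B in cells that secrete lipoproteins. It had 2, 1 and 4 fragments in the ICSI-AOA libraries and 6, 6 and 2 in dICSI-AOA, against 8, 10 and 11 in ICSI (log2 fold change −1.63, SE 0.50, adjusted p = 0.361 in edgeR), and overlaps Trmt10a. Dusp4, a nuclear phosphatase that switches off MAP kinases, had 4, 7 and 11 fragments in the ICSI-AOA libraries and 10, 8 and 8 in dICSI-AOA, against 22, 13 and 12 in ICSI (−1.11, SE 0.38). It was the only called member of the 7 tested immediate early and calcium-responsive genes (14.3%, against 4.28% of all genes). The call was lost without ICSI replicate 2 (−0.69). Bri3, a lysosomal membrane protein that overlaps 2900089D17Rik, had 14, 10 and 15 fragments in the ICSI-AOA libraries and 17, 10 and 5 in dICSI-AOA, against 22, 26 and 21 in ICSI (−1.08, SE 0.32). 2200002D01Rik was at −0.77 (SE 0.25), and Yif1b on the other strand at −0.12 (SE 0.17) without a call.

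Genes of small-intestinal epithelium stood out among those called lower. This was seen in the values first, and a list of 69 markers of enterocytes, goblet, Paneth and endocrine cells was then composed, so its counts describe these libraries and are no test. In the table, 70 of 71 entries of the list had at least 1 fragment, and Guca2a alone had none. Over all genes 12128 of 22564 had at least 1. Such presence can be slight, since Fabp6, Phgr1 and Slc7a9 each had 1 fragment in a single library. Of the 40 tested, 14 were called lower (35%, against 4.28% of all genes) and 0 higher, 32 had a log2 fold change below 0, and the median was −0.64, against −0.02 for all genes. With each library left out in turn 10 to 16 were called lower, the fewest without ICSI replicate 6. With the authors' factors 9 were lower and 1 higher, and by limma on log2(FPKM + 1) 2 were lower and 1 higher, with a list median of −0.16 where all genes had 0.24. The summed level of the list was 3915 to 5443 CPM in the ionomycin libraries and 6084 to 6872 CPM in the ICSI libraries, without overlap. The source of these fragments was not tested, and the counts do not show that such cells were in the pools. In bulk RNA the number of cells of a type and the RNA per cell cannot be told apart. For comparison, hepatocyte markers had a fragment in 7 of 20 genes and erythroid markers in 4 of 12, and albumin (Alb) and the globins listed were at 0 in all libraries. With the intestinal list left out before scaling, 286 of 4264 genes were called, 116 higher and 170 lower. The part that such RNA has in the other calls was not tested beyond this.

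**Figure D3:**
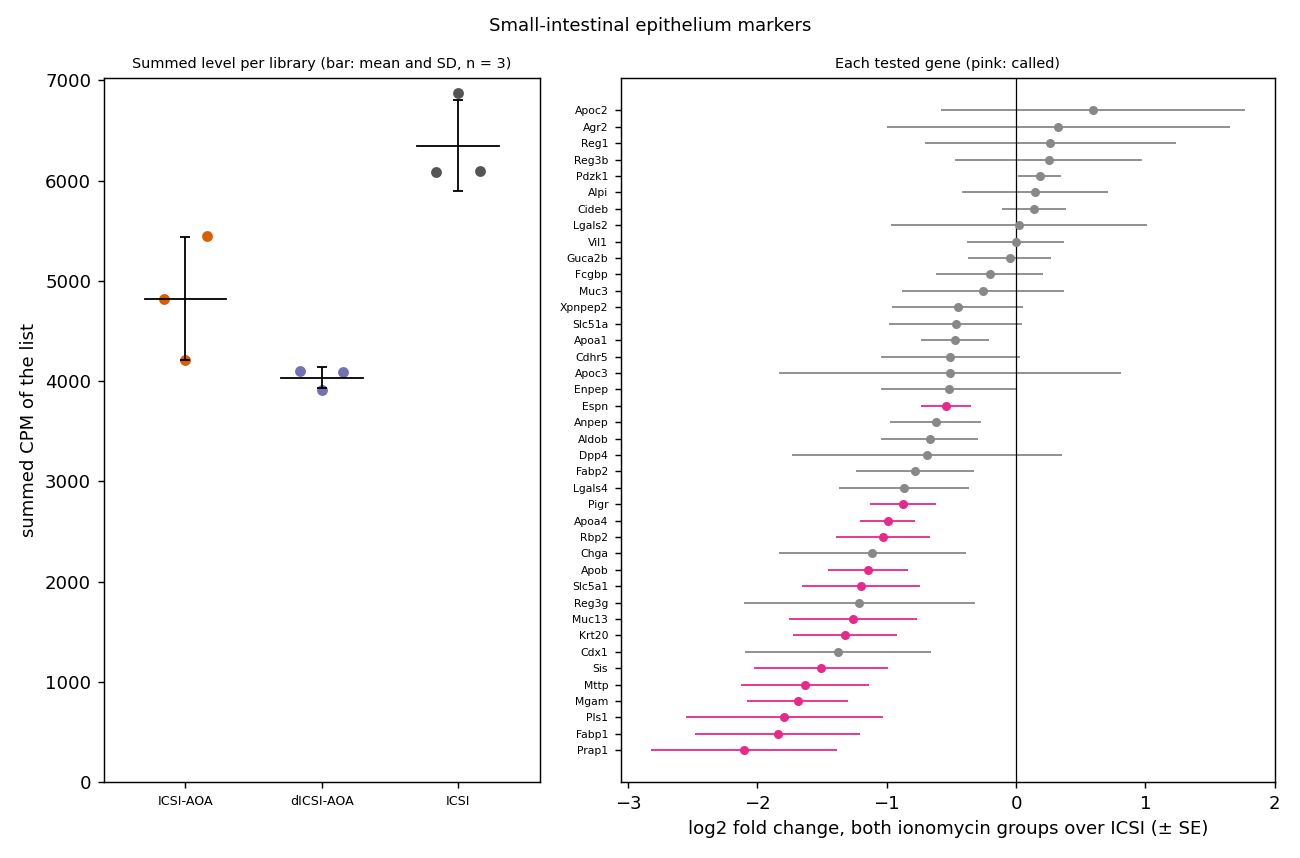
Left, the summed CPM of the small-intestinal epithelium list in each library, with the mean and SD (n = 3) of ICSI-AOA, dICSI-AOA and ICSI; the highest ionomycin library is at 5443 CPM and the lowest ICSI library at 6084 CPM. Right, the log2 fold change of both ionomycin groups over ICSI with its SE for the 40 tested members, of which the 14 in pink were called, all to the left of 0.

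Lipid handling and the apical membrane are described here, and except for P4hb, which another list names, the genes of this and the next paragraph were chosen after their values were seen. Apoa4, an apolipoprotein that the intestine secretes on chylomicrons, had 62, 66 and 61 fragments in the ICSI-AOA libraries and 48, 49 and 34 in dICSI-AOA, against 49, 125 and 118 in ICSI. Its log2 fold change was −0.99 (SE 0.21, adjusted p = 0.104 in edgeR). ICSI replicate 2 lies inside the range of the ionomycin libraries, so the groups overlap, and its exons overlap Gm47528 by 634 bp. Apob, the structural apolipoprotein of chylomicrons, had 8, 14 and 12 fragments in the ICSI-AOA libraries and 15, 11 and 8 in dICSI-AOA, against 19, 32 and 19 in ICSI (−1.15, SE 0.31), with no overlap between the groups and no partner on the other strand. By limma on log2(FPKM + 1) the calls of Apoa4 (−0.57), Apob (−0.23) and Mttp (−0.73) ended. P4hb, protein disulfide isomerase and the second subunit of the transfer protein that Mttp forms, had 0, 3 and 3 fragments in the ICSI-AOA libraries and 6, 3 and 4 in dICSI-AOA, against 6, 9 and 12 in ICSI (−1.69, SE 0.54), and is a called member of the unfolded protein response list. Apoa1 was at −0.47 (SE 0.26) without a call. Fabp1, a fatty acid binding protein, was at −1.84 (SE 0.64) with 14 of its 23 ICSI fragments in replicate 6, without which the call was lost (−1.07).

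Pigr, the receptor that carries immunoglobulin A across epithelia, had 71, 107 and 209 fragments in the ICSI-AOA libraries and 120, 60 and 55 in dICSI-AOA, against 157, 238 and 116 in ICSI (−0.87, SE 0.26). The groups overlap, since ICSI-AOA replicate 5 exceeds ICSI replicates 2 and 6. The disaccharidases of the brush border were both called: Mgam had 9, 6 and 11 fragments in the ICSI-AOA libraries and 4, 4 and 3 in dICSI-AOA, against 20, 23 and 8 in ICSI (−1.69, SE 0.39), and Sis was at −1.51 (SE 0.52), a call that was lost without ICSI replicate 2 (−0.99). The glucose transporter Slc5a1 was at −1.20 (SE 0.46) and Prap1, a secreted acidic protein that overlaps Fuom, at −2.10 (SE 0.72). The calls of the keratin Krt20 (−1.32, SE 0.40), the mucin Muc13, which overlaps Gm15657 (−1.26, SE 0.50), and the retinol binding protein Rbp2 (−1.03, SE 0.37) were lost without ICSI replicate 6, at −0.89 each. The actin bundlers of microvilli were Espn (−0.54, SE 0.19), whose call was lost without ICSI replicate 5 (−0.25), and Pls1 (−1.79, SE 0.76), lost without ICSI-AOA replicate 5 (−1.53) or ICSI replicate 2 (−1.41). Members without a call and near 0 were Vil1, villin, at −0.00 (SE 0.37), Cideb, which overlaps Nop9, at 0.14 and Pdzk1, which overlaps Gpr89, at 0.18. Both partners were called lower, Nop9 at −0.47 and Gpr89 at −0.55.

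**Figure D4:**
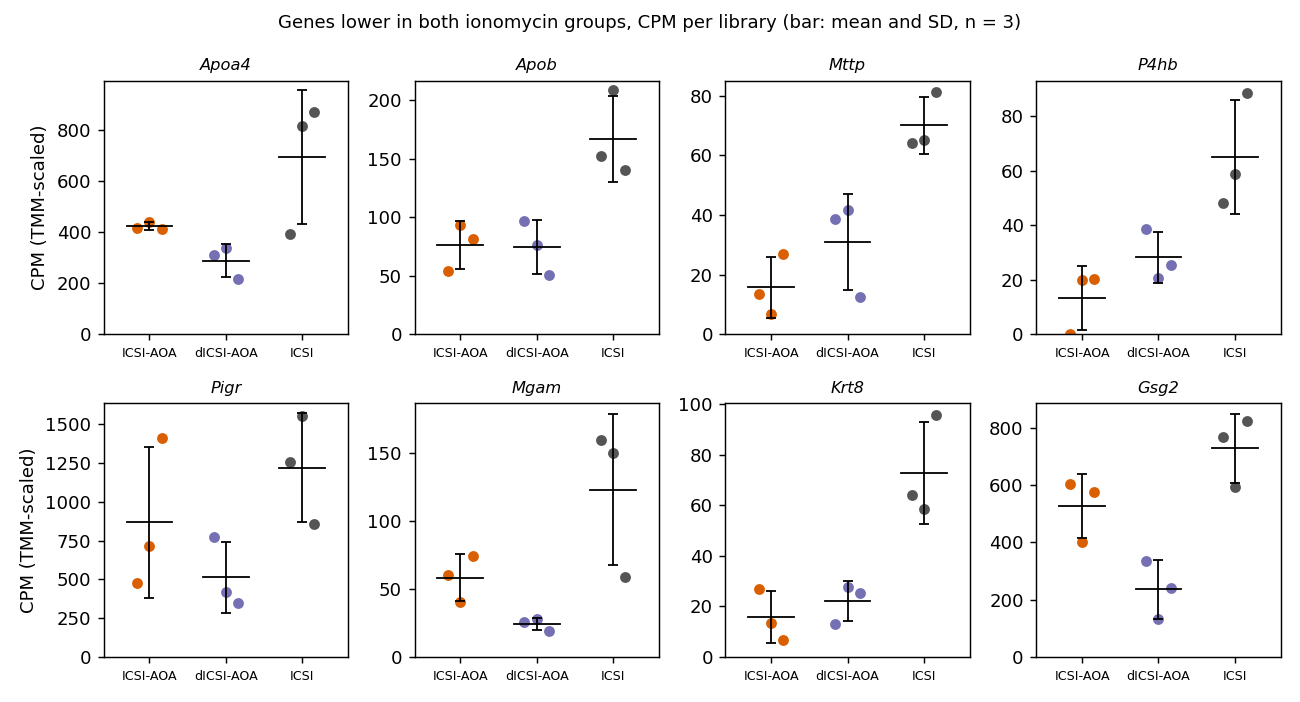
CPM of 8 genes called lower, per library, with the mean and SD (n = 3) of ICSI-AOA, dICSI-AOA and ICSI from left to right, each axis starting at 0. Apob, Mttp, P4hb and Krt8 do not overlap between ionomycin and ICSI libraries, Apoa4, Pigr and Mgam overlap through 1 or more libraries, and Gsg2 is lowest in dICSI-AOA while ICSI-AOA overlaps ICSI.

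Promoter sequence is shown for the 3 lipoprotein genes that were lower together and for Syn1, a higher gene with no overlap between the groups, as the 250 bases before the RefSeq start on GRCm38.p6 (mm10), read 5′ to 3′ on the gene's own strand. Capitals mark the motifs searched on both strands: TGACG (the core of the cAMP response element), CACGTG (the E-box), CCAAT (the CCAAT box), GGGCGG (the GC box) and also CAAAG, the start of many binding sites of the nuclear receptor HNF4, which was added after the list of genes was seen. TGACG and its reverse can overlap each other.
Apoa4, chr9:46240594-46240843, plus strand: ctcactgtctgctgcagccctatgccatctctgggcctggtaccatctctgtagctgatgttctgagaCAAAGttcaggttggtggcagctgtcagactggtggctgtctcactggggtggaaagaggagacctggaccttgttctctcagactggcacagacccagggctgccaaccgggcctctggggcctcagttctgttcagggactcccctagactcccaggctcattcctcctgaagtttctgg
Apob, chr12:7977427-7977676, plus strand: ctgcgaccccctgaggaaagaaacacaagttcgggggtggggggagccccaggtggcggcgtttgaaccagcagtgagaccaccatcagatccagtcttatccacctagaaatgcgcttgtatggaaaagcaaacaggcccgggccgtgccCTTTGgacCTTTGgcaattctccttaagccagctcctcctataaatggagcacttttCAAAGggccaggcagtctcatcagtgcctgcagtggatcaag
Mttp, chr3:138143419-138143668, minus strand: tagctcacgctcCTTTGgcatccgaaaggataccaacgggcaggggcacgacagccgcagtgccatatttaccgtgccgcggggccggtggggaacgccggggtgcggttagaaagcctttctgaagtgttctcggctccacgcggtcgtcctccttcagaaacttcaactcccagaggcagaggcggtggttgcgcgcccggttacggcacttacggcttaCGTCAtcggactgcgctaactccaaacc
Syn1, chrX:20920919-20921168, minus strand: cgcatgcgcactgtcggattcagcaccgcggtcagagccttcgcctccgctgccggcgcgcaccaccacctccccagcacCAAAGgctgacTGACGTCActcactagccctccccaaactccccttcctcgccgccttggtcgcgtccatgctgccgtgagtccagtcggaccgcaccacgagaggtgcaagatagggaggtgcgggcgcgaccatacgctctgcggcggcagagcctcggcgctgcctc

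Apoa4 held CAAAG once, Apob held it 3 times counting both strands, and Mttp held it once beside a TGACG on the other strand, while Syn1 held CAAAG once and TGACG on both strands at overlapping bases. The same window of Krt8, a lower gene that is not printed, held 0 matches to the motifs searched. CAAAG stood in 45.4% of the 130 promoters matched for genes called lower, 47.1% of the 85 matched for genes called higher, 43.6% of those of tested genes and 48.8% of all 27025 genes with a promoter, so its presence is common. TGACG stood in 29.2% of promoters of genes called lower, 29.4% of those called higher and 25.8% of those tested. GC boxes stood in 45.4%, 49.4% and 54.4% in the same order, CACGTG in 10.8%, 11.8% and 7.44%, and CCAAT in 34.6%, 29.4% and 34.4%. A match is a description of letters in this window, taken from the first start listed for each gene.

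Genes with many fragments allow a closer view, and several were called lower with small folds. Nop9, an RNA-binding protein of ribosome assembly, had 1435, 1548 and 1753 fragments in the ICSI-AOA libraries and 1897, 1625 and 1779 in dICSI-AOA, against 1815, 2585 and 1983 in ICSI (log2 fold change −0.47, SE 0.11, adjusted p = 0.124 in edgeR), and no library overlapped in CPM. Its exons share 1136 bp with Cideb, a lipid droplet gene on the other strand, which was at 0.14 (SE 0.25). Hcn3, a pacemaker channel gene that overlaps Pklr, pyruvate kinase of liver and red cells, by 711 bp, was at −0.41 (SE 0.12), and its call was lost without ICSI-AOA replicate 4 (−0.35) or dICSI-AOA replicate 5 (−0.38). Gpr89, which overlaps the intestinal scaffold gene Pdzk1 by 1333 bp, was at −0.55 (SE 0.13). These 3 were chosen after their values were seen, and with the authors' factors their calls ended, at −0.14 for Nop9, −0.06 for Hcn3 and −0.23 for Gpr89. Cdk4, the cyclin D kinase, had 355, 297 and 332 fragments in the ICSI-AOA libraries and 426, 265 and 297 in dICSI-AOA, against 364, 427 and 451 in ICSI (−0.46, SE 0.15). In CPM the groups of Cdk4 did not overlap, but its call ended with the authors' factors (−0.11), and Tspan31 on the other strand had only 4 to 9 fragments per library. Among the genes without a partner on the other strand and chosen after their values were seen, Scn3b, a sodium channel subunit, was at −0.95 (SE 0.23), Snph, syntaphilin, at −0.68 (SE 0.20), Fndc9 at −1.03 (SE 0.28) and Ptms, parathymosin, at −1.56 (SE 0.42), all without overlap between the groups in CPM. Hspbap1, which overlaps Gm26838, was at −1.65 (SE 0.38).

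Of 20 tested genes of calcium stores, pumps and calmodulin effectors, 3 were called lower (15%, against 4.28% of all genes) and 0 higher, with a median of −0.13. Calr, calreticulin, the calcium buffer of the endoplasmic reticulum, had 12, 1 and 5 fragments in the ICSI-AOA libraries and 6, 4 and 1 in dICSI-AOA, against 5, 7 and 25 in ICSI (−1.50, SE 0.56), and its call was lost without ICSI replicate 6 (−0.45). Atp2a2, the calcium pump SERCA2, had 12, 4 and 0 fragments in the ICSI-AOA libraries and 23, 0 and 8 in dICSI-AOA, against 18, 20 and 12 in ICSI (−1.28, SE 0.56), with a call lost without any of 6 single libraries (−1.22 to −1.0). Ccdc109b encodes a component of the channel that lets calcium into mitochondria, and its fragments numbered 3 in the ionomycin libraries and 7 in ICSI, a ratio of 0.196 (95% counting interval 0.0328 to 0.860). Its call was lost without ICSI replicate 6 (−2.59). Of 25 phosphoinositide and inositol phosphate enzymes 1 was called higher (4%, against 2.65% of all genes) and 0 lower. This was Pip5k1c, a kinase that makes phosphatidylinositol bisphosphate (1.52, SE 0.68). Its call was lost without ICSI-AOA replicate 1 (1.28), dICSI-AOA replicate 1 (1.32) or ICSI replicate 2 (1.02).

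Of lysosomal hydrolases and membrane proteins, 2 of 19 tested were called higher (10.5%, against 2.65% of all genes) and 0 lower, but the list median was −0.10. Beside Sgsh this was Gla, alpha-galactosidase A, with 4, 11 and 12 fragments in the ICSI-AOA libraries and 13, 7 and 12 in dICSI-AOA, against 0, 3 and 4 in ICSI (1.9, SE 0.59), whose call held under every alternative that tested it. In CPM the lowest ionomycin library of Gla fell below the highest ICSI library. Of 7 tested retromer and endosomal sorting genes 1 was called higher (14.3%, against 2.65% of all genes), Vps26b (1.0, SE 0.26). Of 14 vesicle docking genes 2 were called higher (14.3%, against 2.65% of all genes) and 1 lower (7.14%, against 4.28%). Exoc3, a subunit of the exocyst that tethers vesicles, had 35, 81 and 70 fragments in the ICSI-AOA libraries and 128, 52 and 112 in dICSI-AOA, against 112, 145 and 98 in ICSI (−0.73, SE 0.23). Vamp3, a vesicle SNARE, had 23 fragments in the ionomycin libraries and 2 in ICSI, a ratio of 5.27 (95% counting interval 1.3 to 46.1), and Syt6, a synaptotagmin that overlaps Atg4a-ps, was at 1.93 (SE 0.81). Those last calls were lost without any of 5 and any of 4 single libraries, with log2 fold changes of 1.59 to 2.07 for Vamp3 and 1.32 to 1.78 for Syt6.

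Of 8 tested genes of GPI anchor synthesis 4 were called, 1 higher (12.5%, against 2.65% of all genes) and 3 lower (37.5%, against 4.28%). Pigq, of the complex that starts the anchor, had 10, 15 and 6 fragments in the ICSI-AOA libraries and 0, 4 and 4 in dICSI-AOA, against 0, 0 and 1 in ICSI, a ratio of 17.9 (95% counting interval 3.02 to 724), and overlaps Gm16278. Pigf, which helps to attach the terminal phosphate bridge and overlaps Rhoq, had 69, 49 and 45 fragments in the ICSI-AOA libraries and 44, 46 and 73 in dICSI-AOA, against 77, 78 and 65 in ICSI (−0.57, SE 0.20). Its call was lost without ICSI replicate 2 (−0.45). Pigb, a mannosyltransferase that overlaps Ccpg1, was at −0.40 (SE 0.17), lost without any of 4 single libraries (−0.41 to −0.26). Pigv, another mannosyltransferase of the pathway, was at −0.86 (SE 0.39) and lies outside the naming rule, chosen after its values were seen to complete the count.

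Of 24 mitochondrial ribosomal proteins 2 were called higher (8.33%, against 2.65% of all genes) and 1 lower (4.17%, against 4.28%), with a median of 0.27. Mrps34 had 14 fragments in the ionomycin libraries, with 1 to 3 in each, and 0 in ICSI, so it was at least 2.14-fold higher with the ICSI group set at 3 fragments, and it shares 1309 bp with Mapk8ip3. It passed the FPKM filter only through the ionomycin libraries, so its call is no support for the share of the list. Mrps14 was at 0.96 (SE 0.43), a call lost without any of 5 single libraries (0.71 to 0.93). Mrpl48, which overlaps Rab6a, had 80, 99 and 77 fragments in the ICSI-AOA libraries and 93, 83 and 72 in dICSI-AOA, against 85, 147 and 103 in ICSI (−0.52, SE 0.17), and lost its call without ICSI replicate 5 (−0.37). Of 29 respiratory chain subunits 1 was called lower (3.45%, against 4.28%), Atp5a1, the alpha subunit of ATP synthase, which overlaps Haus1 (−1.91, SE 0.68). Of 10 mitochondrially encoded genes 1 was called lower (10%, against 4.28%), mt-Co1 (−0.44, SE 0.21), a call lost without any of 6 single libraries (−0.47 to −0.18). Of 44 cytosolic ribosomal proteins 2 were called higher (4.55%, against 2.65%): Rps12 at 1.14 (SE 0.50), lost without any of 4 single libraries (0.92 to 1.12), and Rps28, with 9 fragments in the ionomycin libraries and 0 in ICSI, at least 1.37-fold higher at the same limit, with a call lost without any of 7. Rps28 too passed the FPKM filter only through the ionomycin libraries. Pes1, of ribosome assembly, overlaps 4930556J24Rik and was at 0.39 (SE 0.18), lost without any of 5 (0.30 to 0.38).

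Of 28 cell cycle and mitotic kinases 3 were called lower (10.7%, against 4.28% of all genes) and 0 higher. Gsg2, which encodes haspin, the kinase that phosphorylates histone H3 in mitosis, had the smallest p of all genes tested. It had 90, 60 and 85 fragments in the ICSI-AOA libraries and 52, 19 and 38 in dICSI-AOA, against 96, 91 and 112 in ICSI (−1.04, SE 0.21, adjusted p = 0.103 in edgeR). Its log2 fold change was −1.62 in dICSI-AOA and −0.46 in ICSI-AOA, a difference that did not pass correction (adjusted p = 0.0775 in edgeR), and ICSI-AOA replicate 1 (606.1 CPM) lay above ICSI replicate 5 (593.3 CPM), so the pooled groups overlap. Ccne1, cyclin E1, was at −1.69 (SE 0.80), lost without any of 7 single libraries (−1.86 to −0.42). Of 16 antioxidant genes 1 was called lower (6.25%, against 4.28% of all genes) and 0 higher. This was Gpx7, a peroxidase of the endoplasmic reticulum. Gpx7 had 3, 14 and 14 fragments in the ICSI-AOA libraries and 25, 8 and 2 in dICSI-AOA, against 19, 41 and 25 in ICSI (−1.47, SE 0.42). Single members of other lists were Cyp51 of cholesterol synthesis (−0.51, SE 0.19, overlapping Akap9, lost without ICSI replicate 5 at −0.42), Tkt, transketolase, listed with glycolysis (−1.93, SE 0.90, lost without any of 6 libraries, −1.82 to −1.29), and Ctnnd1, p120 catenin (−0.49, SE 0.20, lost without ICSI-AOA replicate 1 at −0.40 or ICSI replicate 2 at −0.31). The lists of 17 imprinted genes, 26 chromatin regulators, 15 genes of p53 and apoptosis and 13 interferon response genes had 0 calls in either direction. So did the few tested markers of epiblast, primitive endoderm, oocyte, cumulus and sperm. Over all genes 6.92% were called, so lists this short would hold few calls at that share.

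How far the pooled groups differed from each other can be read from the contrast of dICSI-AOA with ICSI-AOA, which does not use the ICSI libraries. Of the 114 genes called higher 9 were called in that contrast (7.89%), and of the 184 called lower 24 (13%), where 6.6% of all genes were. On its own against the ICSI libraries, which both comparisons share, ICSI-AOA had 129 genes higher (3% of all) and 175 lower (4.07%), and dICSI-AOA had 133 higher (3.09%) and 151 lower (3.51%). Genes carried by a single library reached the lower set too: all 49 fragments of Ube2n, a ubiquitin conjugating enzyme, lay in ICSI replicate 5, and 31 of the 39 fragments of Gm14492 lay in ICSI replicate 6. Both were chosen after their values were seen, and without those libraries the log2 fold changes were 0.00 and −0.10.

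Igf2r, the imprinted receptor that the study follows, was on 1 side in FPKM and not in fragments. The study also reported a rise of Igf2r by quantitative PCR, with measurements of Airn and of DNA methylation at the locus. Those were not examined here. It had 13, 8 and 7 fragments in the ICSI-AOA libraries and 16, 15 and 11 in dICSI-AOA, against 4, 14 and 10 in ICSI (log2 fold change 0.18, SE 0.39). The difference of mean log2(CPM + 1) was 0.30 (exact permutation test over 84 splits, two-sided, p = 0.5, where 0.0119 is the smallest the design gives). The FPKM were 22.1, 15.5 and 16.3 in the ICSI-AOA libraries and 71.3, 10.3 and 10.3 in dICSI-AOA, against 0.312, 1.17 and 0.886 in ICSI, a difference of 3.50 on log2(FPKM + 1). No test is given for it, since groups that do not overlap reach the smallest p of the design by that alone. FPKM per fragment, after the authors' factor, was 0.615 to 3.85 in the ionomycin libraries and 0.0895 to 0.0899 in ICSI. FPKM divides by a gene length, which this ratio carries, and among 3152 genes with fragments in every library that of Igf2r differed most between ionomycin and ICSI (4.12 on the log2 scale, where the median was −0.01), with 39 genes past 1 in size. Of 165 such genes on 1 side in FPKM but not in CPM, 3 were past it.

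**Figure D5:**
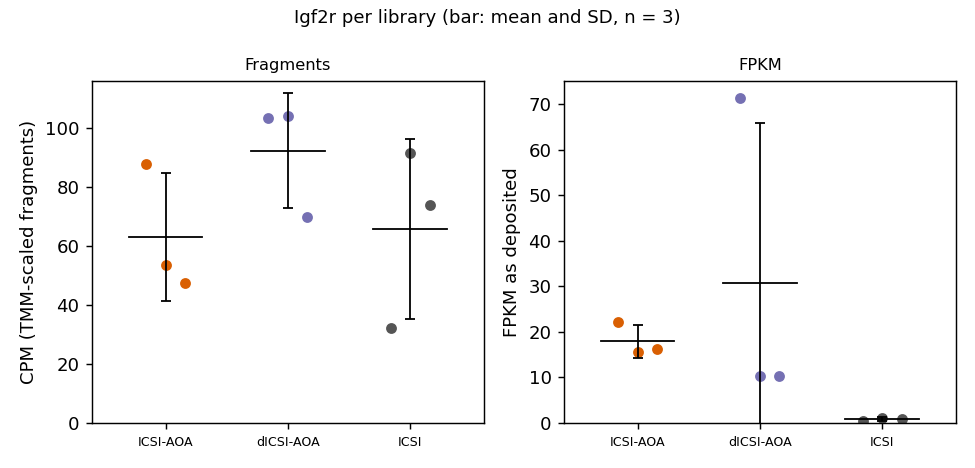
Igf2r in each library, with the mean and SD (n = 3) of ICSI-AOA, dICSI-AOA and ICSI from left to right; left, CPM of fragments, right, FPKM as deposited, with the error bar of dICSI-AOA cut at 0. The groups overlap in CPM, whereas the lowest ionomycin FPKM is 10.3 and the highest ICSI FPKM 1.17.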

How the data were processed

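RNA of 9 pools of day 3.5 blastocysts was measured, and all 9 libraries were used. The labels name a stranded TruSeq total RNA kit and the study's methods another stranded kit. Per the submitters' processing notes, reads were trimmed with cutadapt 1.9.3, aligned with HISAT2 to mm10 and quantified with Cufflinks and Cuffdiff. The authors deposited FPKM (fragments per length and library size) and estimated counts. The scaling between libraries is not given in the sources used here.

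The deposited estimated counts are whole multiples of 1 value per library (95.6% to 96.1% of values within 0.01). Division by it and rounding gave the fragments. Of 22564 genes, 4304 whose FPKM averaged 1 or more were tested by edgeR 4.0.16 in R 4.3.3 (quasi-likelihood, TMM, 1 mean per group, two-sided), with the contrast of the mean of ICSI-AOA and dICSI-AOA minus ICSI. The FPKM average spans all 9 libraries, so a gene near 0 in ICSI can pass through the ionomycin libraries alone. Adjusted p-values are Benjamini-Hochberg over all 4304. FPKM was an alternative, tested with limma 3.58.1. Exon overlaps and gene positions came from GENCODE vM21, to which 96.8% of genes were matched, and promoters from RefSeq (GRCm38.p6), with 3107 of 4301 tested symbols matched.

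Named genes were the up to 12 largest folds each way among called genes on 1 side in CPM and FPKM with at least 5 fragments on average, up to 3 called members of each of 28 lists with the smallest p, any gene past an adjusted p of 0.05 (there was none), Igf2r, Krt8 and Krt18. Others are marked as chosen after their values were seen. The members and lists were chosen with earlier results of these data known. A count of 0 was set at 3 fragments per group, and intervals cover counting error only. Alternatives were other scalings, filters, pseudocounts, DESeq2 1.42.0, a replicate block and each library left out. Added after seeing the data were the genes without an exon overlap of 100 bp and the intestinal list.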

Additional observations from a re-analysis of the deposited data

Results flagged for a closer look

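The ionomycin groups differed from each other, at an unadjusted p under 0.05 for dICSI-AOA over ICSI-AOA in edgeR, in 7 of the genes named by the rule and in 4 of those chosen after their values were seen, none past an adjusted p of 0.05. Gsg2 was lower in dICSI-AOA, with a log2 difference of −1.15 and an SE of 0.265 (adjusted p = 0.0775), and so was Vps26b, at −1.04 (SE 0.267, adjusted p = 0.212). Vps26b had 32, 22 and 48 fragments in dICSI-AOA, against 72, 77 and 55 in ICSI-AOA, and the ICSI libraries had 27, 18 and 20, so its higher pooled value came mainly from ICSI-AOA. Pigq was at −1.94, Pigb at −0.518 and Tkt at −2.79, all lower in dICSI-AOA, while Mrps14 at 0.971 and Exoc3 at 0.601 were higher there, with adjusted p of 0.618 to 0.729 for these 5 in edgeR. The other 4 were Ptms at −1.70, Mgam at −1.25, Pigr at −0.76 and Apoa4 at −0.56, all lower in dICSI-AOA and the last 3 from the intestinal list, with adjusted p of 0.529 to 0.728 in edgeR. Genes were tested for this difference one by one, and 284 of 4304 were called in it.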

How the results depend on the processing

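The count of called genes, 298, moved by over 1.5 times with the authors' factors (504), no filter (591 of 12128 genes), a mean FPKM of at least 5 (145 of 1800), a mean of at least 10 fragments (169 of 1889), DESeq2 (151) and, added after the data were seen, only genes without an exon overlap on the other strand (166 of 2377). Filters changed the number of genes tested. Without single libraries it was 263 to 332. The share of higher genes, 38.3%, became 48.7% with total fragments, 91.5% with the authors' factors, 89.5% and 92.9% by limma on FPKM with pseudocounts of 1 and 0.1, and 51.5% after quantile normalization. Genes past an adjusted p of 0.05 were 4 with the authors' factors, 25 without a filter and 0 to 13 without single libraries (13 when dICSI-AOA replicate 1 was left out, and 5, 2 and 1 when ICSI replicates 2, 5 and 6 were). Genes on 1 side were 236 in FPKM, 67 and 81 under the stricter filters, and 188 to 381 without single libraries, where fewer libraries must separate.

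Replicate numbers were not taken as pairs: same-numbered libraries of different groups were correlated by −0.042 to 0.059 after group means were removed. Of the ICSI replicates 2, 5 and 6, only number 5 recurs in the ionomycin groups. A replicate block therefore fits ICSI replicates 2 and 6 by themselves, and its contrast rests on ICSI replicate 5 alone. Calls made or ended by the block, and its adjusted p-values, thus cannot tell whether a difference between the groups holds. With a replicate block, 242 genes were called, of which 93 were among the 298, and 17 passed an adjusted p of 0.05. Of the genes selected for description, the block ended 19 of 25 higher and 29 of 48 lower calls, those of Ccnl1, Syn1, Ranbp6, Usp49, Sgsh, Krt8, Mttp, P4hb, Gsg2 and Cdk4 among them. The block turned Ccne1 to 4.02, Tkt to 2.54, Igf2r to −0.66 and Gm14492 to 0.0043. Ccne1 and Tkt had 0 fragments in ICSI replicate 5, the library on which that contrast rests. Pigb turned to 0.12 and 0.13 by limma on FPKM, and Pes1 to −0.0057 after quantile normalization. Without ICSI replicate 2 Igf2r was at −0.11 in edgeR (highest 0.50, without ICSI replicate 5), and its difference of log2(CPM + 1) ranged from −0.14 to 0.60 without single libraries, against 3.50 in FPKM. Without ICSI replicate 5 Ube2n was at 0.00 (lowest −7.62, without ICSI replicate 6). Of 45 called genes named by the rule, 21 kept the call without each library, and 15 lost it without 3 or more. Depth limits single genes to few fragments, a median of 8 over the tested genes.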
